A study of Schizosaccharomyces pombe with 6 samples.

Results

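Sulfate assimilation is the route by which fungi turn inorganic sulfate into sulfide and then into the thiol group of cysteine and homocysteine. Sulfate is first activated by coupling to ATP, the activated sulfate is reduced to sulfite and then to sulfide, and sulfide is joined to an acetylated serine or homoserine. In budding yeast the same enzymes feed both methionine and glutathione, and their genes are known for responding to the supply of sulfur amino acids. The 10 fission yeast genes described here were chosen by their identifiers, as the enzymes of these steps and the relatives of the serine and homoserine acetyltransferases. All 10 have a row in the deposited table, which holds 6345 genes, namely 5059 mRNAs and 1286 ncRNAs (identifiers beginning with SPNCRNA).

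The study asked whether loss of Mkt1, a post-transcriptional regulator needed for RNAi-mediated silencing, alters RNA levels. RNA came from 3 wild-type cultures and 3 *mkt1Δ* cultures, described in the labels as biological replicates, in exponential growth at 32°C in YES, a rich medium made with yeast extract. Both strains are h+ and carry *ade6-210*, *leu1-32* and *ura4-D18* together with an *ade6+* reporter inserted in the outer repeat of centromere 1 (otr1R), and in the mutant *mkt1* is replaced by the NatR cassette. The wild-type libraries all come from strain EHB7 and the *mkt1Δ* libraries all from strain EHB2196, so each genotype is represented by a single strain.

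The value used for each gene is the authors' mean log2 CPM, the log2 of the average level in counts scaled to library size (CPM) over the 6 libraries of both strains together. Because that mean holds no value per library, it has no SD, the depth of each library is unknown, and the loss of *mkt1* RNA in the mutant cannot be shown from it. The deposited table also holds the authors' own comparison of the strains, which was not used, so no difference between wild-type and *mkt1Δ* cells is given for any gene. Read shares favour long genes, and levels of different genes are therefore compared per kilobase of coding length. An order of levels is that of these pooled means and need not hold within either strain. How far neighbours in an order of levels differ beyond the spread between libraries could not be tested.

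In 8 of the 10 the authors' mean log2 CPM lies above the median of all mRNAs, which is 6.19. Per kilobase, where the mRNA median is a log2 CPM per kilobase of 5.93, 8 of the 10 lie above it. The genes are not the same in both counts, with 7 above both medians, *cys12* below both, SPAC18B11.09c below only by read share and *cys2* below only per kilobase. The members run from 5.26 to 9.21 in the authors' mean log2 CPM, with a median of 7.31. Per kilobase their median is 6.36, and the highest member stands 16.4-fold above the lowest. Summed over the 10 genes the level is 2150 CPM, or 0.215% of the CPM summed over the table, and *sua1* alone makes up 27.6% of that sum. The members' levels are displayed in pathway order in the plot of read share and level per length.

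**Figure D1:**
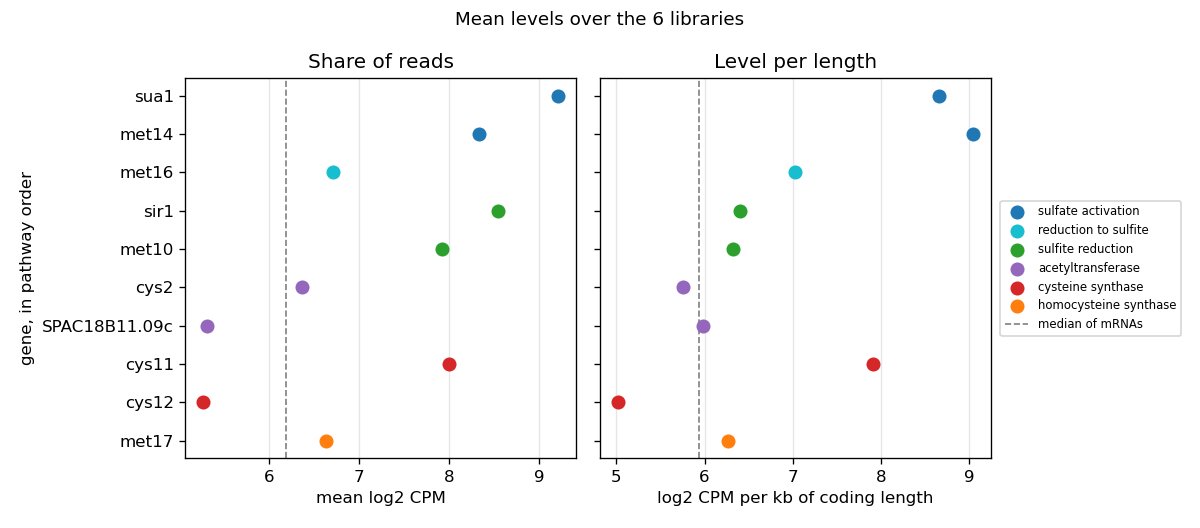
Authors' mean log2 CPM over the 6 libraries (left) and log2 CPM per kilobase of coding length (right) for the 10 genes in pathway order, coloured by step, with 1 point per gene and no error because the deposited value is a mean. Dashed lines mark the medians of mRNAs (6.19 and 5.93). Dividing by length brings *sir1* and *met10* level with each other and moves *met14* above *sua1*.

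The genes of sulfate activation had the highest levels per kilobase. *sua1* (SPBC27.08c) encodes sulfate adenylyltransferase, which makes adenylyl sulfate from sulfate and ATP. Its authors' mean log2 CPM is 9.21, the highest of the 10, and its log2 CPM per kilobase is 8.66, above 89.9% of mRNAs. *met14* (SPAC1782.11) encodes adenylyl-sulfate kinase, which adds a phosphate to give phosphoadenylyl sulfate (PAPS). With an authors' mean log2 CPM of 8.33 over a coding length of only 609 bases, its log2 CPM per kilobase is 9.05, above 92.5% of mRNAs. By read share *sua1* alone of the 10 lies in the top 10% of mRNAs, and per kilobase of coding length *met14* alone does. The order of these 2 genes depends on the length used, since *sua1* is at 0.763 times the level of *met14* per kilobase of coding length but at 1.06 times per kilobase of annotated transcript.

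PAPS reductase, the enzyme that releases sulfite with electrons from thioredoxin, was measured at a lower level. Its gene *met16* (SPAC13G7.06) has an authors' mean log2 CPM of 6.70 and a log2 CPM per kilobase of 7.02, above 71.8% of mRNAs. Per kilobase *met14* is 4.07-fold above *met16*, and *sua1* is 3.10-fold above it. No other step down between successive enzymes on the way from sulfate to sulfide was as large.

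Sulfite reductase turns sulfite into sulfide with electrons from NADPH, and its subunits come from different chromosomes. *sir1* (SPAC10F6.01c) encodes the beta subunit, which by homology holds the siroheme, and *met10* (SPCC584.01c) encodes the flavoprotein subunit. In read share *sir1* is 1.55-fold above *met10*, with authors' mean log2 CPM values of 8.55 and 7.91. The coding lengths are 4422 and 3021 bases, the longest of the 10, and dividing by them narrowed that gap. Per kilobase the log2 levels are 6.40 for *sir1* and 6.32 for *met10*, a 1.06-fold difference, and 1.05-fold per kilobase of transcript. They lie above 60.2% and 58.7% of mRNAs and are, by coding length, the closest pair of genes within any one step. By transcript length *cys2* and SPAC18B11.09c are closer, at 0.981 times.

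Cysteine synthase joins sulfide to O-acetylserine. The gene described as cysteine synthase and that of a cysteine synthase-like protein were far apart in level. *cys11* (SPBC36.04) has an authors' mean log2 CPM of 7.99 and a log2 CPM per kilobase of 7.92, above 83.6% of mRNAs and behind only *met14* and *sua1* among the members. *cys12* (SPAC3A12.17c), described as a cysteine synthase-like protein, has an authors' mean log2 CPM of 5.26 and a log2 CPM per kilobase of 5.02, above 28.8% of mRNAs and the lowest of the 10. The difference is 7.47-fold per kilobase of coding length and 7.08-fold per kilobase of transcript. *met17* (SPBC428.11) encodes homocysteine synthase, which joins sulfide to O-acetylhomoserine and so leads to methionine. At an authors' mean log2 CPM of 6.63 and a log2 CPM per kilobase of 6.27, above 57.3% of mRNAs, it lies between them. Per kilobase *cys11* is 3.14-fold above *met17*, and *met17* is 2.38-fold above *cys12*.

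The acetyltransferase relatives were among the lower members. *cys2* (SPBC106.17c) is described in the deposited table as a predicted homoserine O-acetyltransferase, and SPAC18B11.09c as a protein with predicted serine O-acetyltransferase activity. Enzymes of these kinds supply the acetylated serine or homoserine that accepts sulfide. *cys2* has an authors' mean log2 CPM of 6.36 and a log2 CPM per kilobase of 5.76, below the mRNA median and above 46.3% of mRNAs. SPAC18B11.09c has an authors' mean log2 CPM of 5.30 and, with a coding length of 624 bases, a log2 CPM per kilobase of 5.98, above 51.1% of mRNAs. Read share put *cys2* 2.08-fold above SPAC18B11.09c, whereas per kilobase *cys2* is at 0.856 times its level. *cys11*, whose enzyme would use the acetylated serine, is 3.82-fold above SPAC18B11.09c per kilobase.

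Ranked per kilobase of coding length, the order from high to low is *met14*, *sua1*, *cys11*, *met16*, *sir1*, *met10*, *met17*, SPAC18B11.09c, *cys2* and *cys12*. With the transcript length 8 of the 10 genes keep their rank, and the exceptions are *met14* and *sua1*, which change places. The genes from *sir1* to *met17* are close together by coding length, at 84.6, 79.9 and 77.0 CPM per kilobase. This grouping depends on the length used. By transcript length *met16*, *sir1* and *met10* are close together, at log2 levels of 6.26, 6.19 and 6.12, and *met17* is lower at 5.73. The plot of the members within all mRNAs shows the cluster by coding length near the middle of the curve and the activation genes near its upper end.

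**Figure D2:**
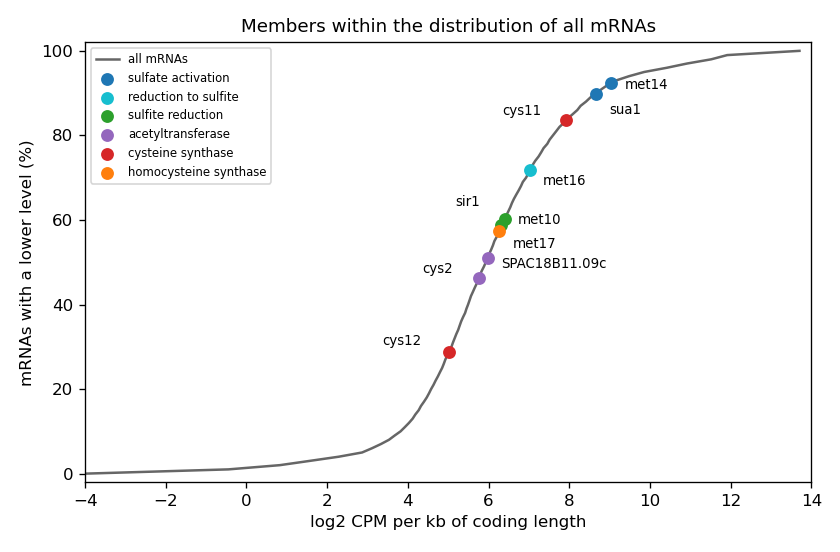
The 10 genes placed on the cumulative distribution of log2 CPM per kilobase of coding length over 5046 mRNAs, with the percentage of mRNAs at a lower level on the vertical axis and points coloured by step. The genes range from *cys12* at 28.8% to *met14* at 92.5%, and by coding length *sir1*, *met10* and *met17* lie within a few percentage points of one another.

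The genes on either side of the pathway, 17 in all and all with a row, were measured in the same way. Those described as sulfate transporters were low per kilobase. *sul1* (SPBC3H7.02) and *sul2* (SPAC869.05c) have log2 CPM per kilobase values of 4.98 and 4.15, SPCC320.05 has 5.13 and *vsb1* (SPAC24H6.11c), a predicted sulfate transporter in the deposited description, has 5.33. With *mrx21* (SPAPB17E12.12c), described as a predicted carrier of PAPS and adenylyl sulfate, at 4.14, these 5 genes lie above 13.2% to 36.1% of mRNAs, all of them under the mRNA median. Of the 10 enzyme genes only *cys12* falls within that range of levels. By read share *vsb1* and *sul1* lie above the mRNA median of 6.19, with authors' mean log2 CPM values of 6.85 and 6.38. The other transporter genes lie below it by that measure too.

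The partners of the reductases were high or moderate. *trx1* (SPAC7D4.07c, cytosolic thioredoxin) and *trr1* (SPBC3F6.03, thioredoxin reductase), which can supply electrons for PAPS reduction, have log2 CPM per kilobase values of 10.12 and 8.87, and both exceed the 7.02 of *met16*. *tol1* (SPCC1753.04), whose enzyme removes the nucleotide by-product of PAPS reduction, has 8.21. *met8* (SPAC4D7.06c), for the synthesis of the siroheme that sulfite reductase holds, has 6.74 against 6.40 for *sir1*. Thioredoxin and its reductase also serve other reactions, so their levels do not belong to sulfate reduction alone.

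Genes of the sulfide, glutathione and methionine sides and the regulators ranged widely. *hmt2* (SPBC2G5.06c), a sulfide-quinone oxidoreductase that oxidises sulfide, has a log2 CPM per kilobase of 8.20. *gcs1* (SPAC22F3.10c) and *gsa1* (SPAC3F10.04), which make glutathione from cysteine, have 6.75 and 6.82. On the methionine side *met26* (SPAC9.09), which methylates homocysteine, has 10.91 and *sam1* (SPBC14F5.05c, S-adenosylmethionine synthetase) has 9.95. *met6* (SPBC56F2.11), described as a homoserine O-acetyltransferase gene, has 6.96. As levels within each strain were not analysed here, any pooled mean, those of *sam1* and *met6* included, may stand for neither strain. *sam1* and *met6* are not ranked against the members. Among regulators, *zip1* (SPAC25G10.03), a bZIP transcription factor of the cadmium and sulfur response, has 8.34, and *pof1* (SPAC57A10.05c), the F-box protein that targets Zip1 for degradation, has 5.43.

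**Figure D3:**
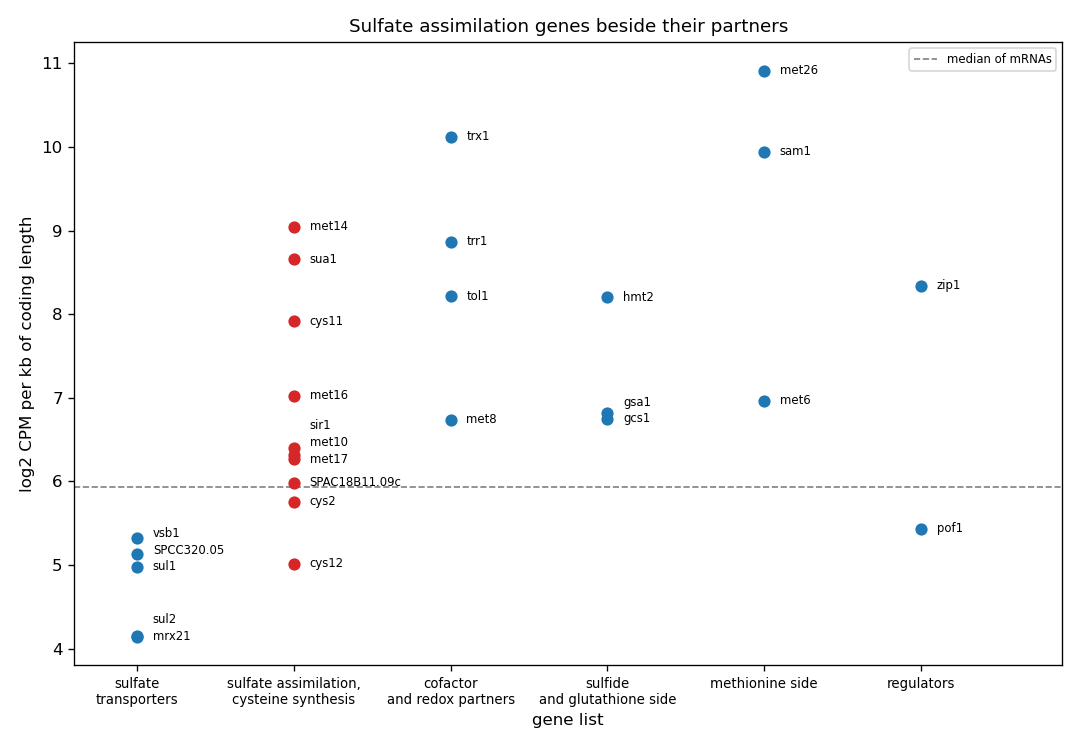
Log2 CPM per kilobase of coding length for the 10 genes (red) and for 5 lists of partner genes (blue), with 1 point per gene, no error, and the dashed line at the mRNA median of 5.93. The 5 transporter genes all lie under the line, and 8 of the 10 enzyme genes lie above it. Each point is a mean over both strains.

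By their systematic names 5 of the genes belong to chromosome I, 4 to chromosome II and 1 to chromosome III, and in the ASM294v3 annotation no member lies next to another. That annotation gives 7 of the 10 a coding sequence in 1 piece, whereas *met14* and *cys11* have 2 pieces and SPAC18B11.09c has 4. In it 5 members overlap another gene of the deposited table, in each case on the opposite strand. The whole *met14* gene lies within the span of SPAC1782.12c, a DUF423 protein gene with an authors' mean log2 CPM of 4.50 against 8.33 for *met14*. The antisense RNA SPNCRNA.1202 covers 57.9% of *met10* and has an authors' mean log2 CPM of 4.64, and the antisense RNA SPNCRNA.1448 covers 39.0% of *sua1* and has 2.53. At their ends *cys11* shares 9.0% of its span with *clr6* (SPBC36.05c), which encodes a histone deacetylase, and *cys2* shares 2.40% with the proteasome gene *pre6* (SPBC106.16). The libraries were stranded, but whether HTSeq counted by strand is not given in the sources used here, so reads in these overlaps are uncertain and their part in the levels was not tested. Another 3 members, *met16*, *sir1* and SPAC18B11.09c, overlap only RNAs with no row in the table, and *cys12* and *met17* overlap none. Such opposite-strand RNAs cover 88.5% of *met16*, 22.9% of SPAC18B11.09c and from 4.17% to 7.54% of *sir1* apiece. An opposite-strand RNA with no row, SPNCRNA.4707, also covers 91.8% of *cys2*, beyond its overlap with *pre6*. The part of these RNAs in the levels was not tested.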

How the data were processed

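Total RNA of 3 wild-type and 3 *mkt1Δ* cultures was made into stranded mRNA libraries by the authors. Per the submitters' processing notes and the methods, reads were trimmed with cutadapt 1.8.3, aligned to ASM294v2 with STAR 2.5, assigned to genes by HTSeq 0.6.1 (mode union) and tested with edgeR 3.12.0 once genes with few reads had been discarded. The deposited table gives the authors' mean log2 CPM of each gene (the log2 of its average CPM) over the 6 libraries, which is the only value used. It also holds their fold changes, p-values and adjusted p-values of *mkt1Δ* against wild-type, which were left out, so the planned test between strains was not run. No sequence is shown.

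Levels per kilobase were the mean log2 CPM minus log2 of the coding length in kilobases. Names, coding and transcript lengths (longest model), overlaps of at least 1 base and neighbours came from ASM294v3, another build than the authors' own, and none of its coordinates are given. The design named a protein table as the source of coding lengths, and the annotated coding segments were used in its place. Of 6345 identifiers 6299 matched, ignoring case, and 5046 of 5059 mRNAs had a coding length. The percentage of mRNAs below a gene was its rank among mRNAs, and the counting functions were tested on simulated data. Every member and every gene of the partner lists is named. The members and lists were chosen with earlier results of these data known. Alternatives were all genes as the reference, a mean log2 CPM of at least 0, and other lengths. Python 3.11.15, numpy 2.4.6 and pandas 2.3.3 were used.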

Additional observations from a re-analysis of the deposited data

How the results depend on the processing

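The count of members above the median level, 8, was also 8 with all genes as the reference, with only mRNAs of a mean log2 CPM of at least 0, and per kilobase of coding length. It was 9 per kilobase of annotated transcript length. The count in the top 10% of levels was 1 with mRNAs as the reference, 1 with the low mRNAs left out and 1 per kilobase of coding length. With all genes as the reference it was 3, where the added ncRNAs lower the limit, and per kilobase of transcript length it was 2. The use of transcript length for these counts was chosen after seeing the data. The span from the lowest to the highest member per kilobase was 16.4-fold with the coding length and 15.1-fold with the transcript length, and the log2 level of single members fell by between 0.07 and 0.76 with the latter. No paired analysis was possible because each gene has only its mean over all libraries, and for the same reason leaving out each library, another normalization and test and no filter on low counts were not run. Depth per library is unknown, so the precision of these means is not known either.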
